A study of Nicotiana tabacum with 12 samples.

Results

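Leaf RNA of K326 and KY, the wild type cultivars of a tobacco (Nicotiana tabacum) study, was compared. The members were 6 of the 12 libraries sequenced, 3 labelled K326 wild type and 3 labelled KY wild type, and all of them were used. K326 is a flue-cured tobacco cultivar. KY is given in the labels by these letters alone. The remaining libraries were 3 labelled Q18 knockout and 3 labelled YOE overexpression. Material was leaf at the seedling stage, with no treatment named and with plant age not given. The study concerned NtCISZOG, an enzyme that attaches glucose to the cytokinin cis-zeatin, and its bearing on chlorophyll and on the chelatase gene NtChlH. Its design text names lines K326-gk-8 and KY-OE-31, whose names carry those of both cultivars. Which wild type each modified line came from is not given otherwise.

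Tobacco is an allotetraploid, so that most genes have a homeologous copy from each ancestral species. Chlorophyll is made in the plastid from glutamate through porphyrins. Magnesium chelatase, an enzyme of H, D and I subunits, inserts magnesium at the point where the pathway leaves the heme branch. Light-harvesting proteins bind the finished chlorophyll and pass energy to both photosystems, and the Calvin cycle uses the products to fix carbon.

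Levels were taken as TPM, a share of transcripts corrected for gene length, as deposited by the authors and then divided by a library factor. No header names the unit. Those factors ran from 0.735 to 0.851 in KY and from 0.923 to 1.307 in K326, and they were each library's median ratio to the average library over 20130 genes. As deposited, the columns summed to between 454145 and 494866 in KY and between 507091 and 635180 in K326. After scaling, the median log2 change over all genes tested was 0.02, against 0.39 on the values as deposited. Every direction below is therefore relative to the typical gene. The number of reads behind a value is unknown. Across genes, scaled libraries correlated at 0.975 to 0.983 within KY, 0.967 to 0.974 within K326 and 0.881 to 0.934 between them. The labels do not say that replicates were separate plants, so the p-values cover the spread of these libraries, and that spread may be technical. In a leaf, a lower level from fewer cells of a type cannot be told apart from less RNA per cell. Copies of a gene can share reads, which makes a single copy less certain than the sum over copies. At genes that were on in 1 wild type alone, described at the end, the YOE libraries went with K326, although the design text names a KY line for overexpression.

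K326 and KY differed in 7841 of 31064 genes tested, which is 25.2% (limma, Benjamini-Hochberg adjusted p under 0.05). In K326, 3810 genes (12.3%) were higher and 4031 (13.0%) were lower, so 48.6% of the calls were higher. As deposited, 7505 were higher and 936 lower, and 88.9% of the calls were higher. Changes of at least 2-fold made up 2178 calls, 1089 each way. The total was 3906 without KY replicate 1, 4484 without K326 replicate 2 and 4559 without KY replicate 3. The values of the libraries did not overlap in 15000 genes (48.3%). Highly expressed genes leaned to lower values in K326. Genes with a mean of at least 500 TPM over all 12 libraries had a median log2 change of -0.55 (136 genes). Those from 100 to 500 had one of -0.22 (601 genes), whereas classes below 100 lay between 0.01 and 0.04. Of genes at 100 or more, 161 were in the photosynthesis lists, with a median of -0.64, and the 576 others had a median of -0.14. Those lists were the light-harvesting, photosystem, Calvin cycle, tetrapyrrole and chlorophyll synthesis, and plastid-encoded protein lists described below.

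The chelatase genes differed most by copy. The ChlH copy Nitab4.5_0005195g0040 stood at 0.0817, 0.306 and 0 TPM in the KY libraries and at 53.6, 39.5 and 64.7 TPM in K326 (log2 change 5.55 ± 0.311 SE, limma adjusted p = 6.4e-07). The other ChlH copy, Nitab4.5_0010636g0020, went the opposite way, at 371, 253 and 322 TPM in KY and 72.4, 50.2 and 82.7 TPM in K326 (log2 change -2.20 ± 0.362, adjusted p = 0.00182). No value of either copy overlapped between the cultivars, and K326 carried both copies at similar levels where KY expressed nearly 1 alone. The D subunit had the same arrangement. Its copy Nitab4.5_0000733g0210 stood at 0.0408, 0.094 and 0 TPM in KY and at 8.61, 6.73 and 9.32 TPM in K326 (log2 change 3.13 ± 0.176, adjusted p = 5.6e-07). Its copy Nitab4.5_0001663g0090 stood at 39.7, 29.9 and 34.6 TPM in KY and at 13.5, 10.8 and 14.9 TPM in K326 (log2 change -1.35 ± 0.186, adjusted p = 0.00058). The single I subunit gene, Nitab4.5_0006237g0030, stood at 74.4, 54.3 and 65.4 TPM in KY and at 42.9, 30.6 and 44.3 TPM in K326, with no overlap, and did not pass (log2 change -0.71 ± 0.254, adjusted p = 0.0607; 0.0235 in a fit to the 6 wild type libraries alone).

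Both ChlH copies together stood at 315 ± 59.1 TPM for KY and 121 ± 29.2 for K326 (mean ± SD, n = 3 each, as for all values with ± and TPM). That is 0.384 of the KY level, and p was 0.1 in an exact permutation test (two-sided), below which 3 libraries against 3 cannot go. As deposited, the ratio was 0.542, at an exact p of 0.1 again. Summed ChlD was 34.8 ± 4.85 TPM in KY and 21.3 ± 3.39 in K326, a ratio of 0.612 (exact p = 0.1; 0.866 and p = 0.3 as deposited). On the scaled values, what the copy near 0 in KY added in K326 was less than what the other copy lacked there, for both subunits.

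**Figure D1:**
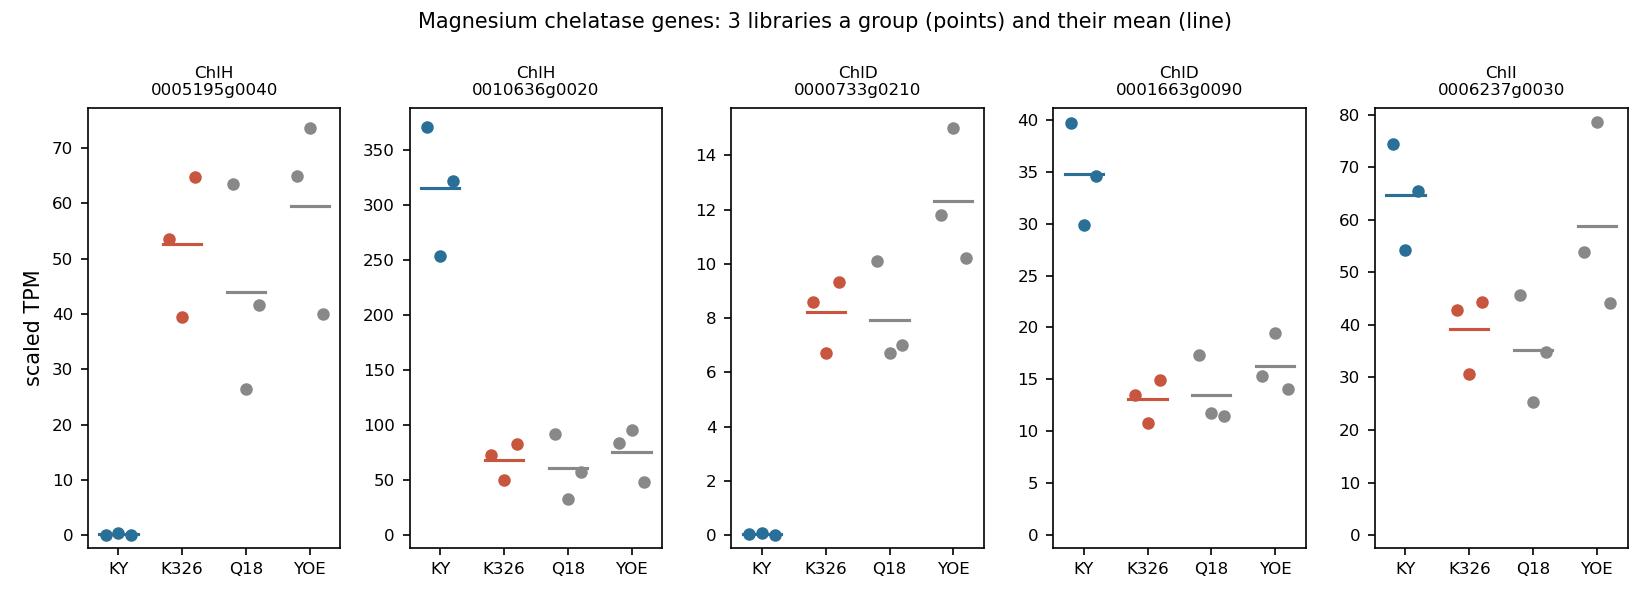
Scaled TPM (vertical axis, linear, one scale per panel) of the 5 magnesium chelatase genes in KY, K326, Q18 and YOE; points are libraries and lines are the mean of 3. The ChlH copy 0005195g0040 and the ChlD copy 0000733g0210 lie near 0 in KY and above 0 in every other library.

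Scaled levels were lower at most steps of the chlorophyll pathway. Summed by enzyme, 13 of 17 steps had all 3 K326 libraries below all 3 KY libraries, 4 overlapped and 0 lay above. Over all single genes tested, 23.5% lay wholly below KY and 24.8% wholly above. As deposited, 4 of the 13 had a mean above KY, namely porphobilinogen synthase (ratio 1.03), coproporphyrinogen oxidase (1.06), protoporphyrinogen oxidase (1.02) and the magnesium-protoporphyrin methyltransferase (1.06). For the first step, glutamyl-tRNA reductase, sums were 160, 117 and 134 TPM in KY and 88.3, 64.3 and 97.3 TPM in K326. Uroporphyrinogen III synthase, which closes the porphyrin ring, was at 68.5 ± 8.64 TPM in KY and 35.9 ± 4.90 in K326, and all 4 of its genes fell. Porphobilinogen deaminase (ratio 0.580), uroporphyrinogen decarboxylase (0.580) and glutamate-1-semialdehyde aminotransferase (0.589) lay close behind it. Chlorophyll synthase, the last step, was at 61.8 ± 6.16 and 41.9 ± 4.54 TPM. The steps that overlapped were ferrochelatase, which makes heme, protochlorophyllide reductase, geranylgeranyl reductase and the monomethyl ester cyclase. Protochlorophyllide reductase, the light-dependent step, stood at 67.2, 49.9 and 57.3 TPM in KY and at 52.7, 45.5 and 91.0 TPM in K326, with 1 K326 library above all others. Ferrochelatase had 1 gene that rose, Nitab4.5_0001584g0010, from 6.51, 7.64 and 5.73 TPM to 15.4, 11.7 and 12.4 TPM (log2 change 0.89, limma adjusted p = 0.0178; 0.0599 to 0.0679 without KY replicate 1 or 3 or K326 replicate 1).

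**Figure D2:**
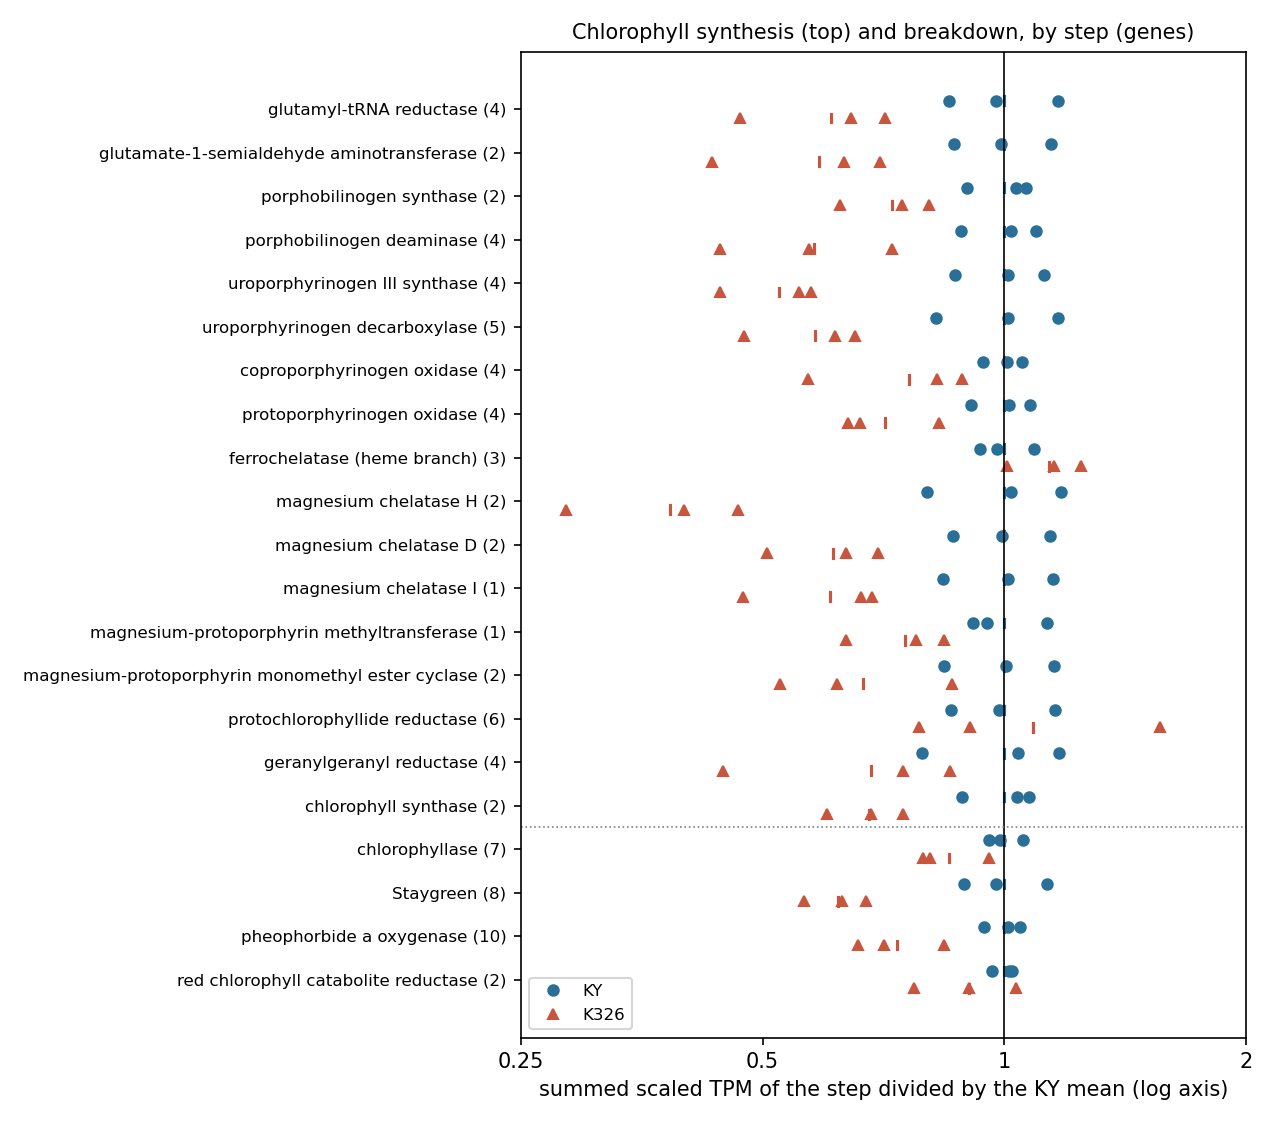
Summed scaled TPM of each enzyme step divided by its KY mean (horizontal log axis); circles are KY libraries, triangles are K326 libraries, short lines are means, and the number of genes is in brackets. Of the chlorophyll steps plotted, ChlH lies furthest to the left, at a mean ratio of 0.384, and protochlorophyllide reductase has 1 K326 library to the right of all KY libraries.

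By single genes, 12 of 41 tested tetrapyrrole and chlorophyll genes fell and 2 rose, which is 29.3% lower and 4.88% higher against the 13.0% and 12.3% over all genes. Their median log2 change was -0.48. The count of lower genes was 6 without KY replicate 1 and 7 when either KY replicate 3 or K326 replicate 2 was left out, and the 2 rises became 0, 1, 0 and 0 without K326 replicate 1, K326 replicate 2, KY replicate 1 and KY replicate 3. As deposited, 4 genes rose and 4 fell, with a median of -0.02. The fall with the largest log2 change in this list, outside the chelatase, was the uroporphyrinogen III synthase gene Nitab4.5_0000973g0020, at 16.6, 9.32 and 11.2 TPM in KY and 4.26, 1.43 and 4.61 TPM in K326 (log2 change -1.65, limma adjusted p = 0.00615).

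Of 23 chlorophyll breakdown genes tested, 3 fell (13.0%, the share over all genes) and 2 rose (8.70%), with a median of -0.31, and 7 of 22 fell in the fit to the 6 wild type libraries alone. As deposited 1 fell and 2 rose, with a median of 0.16. Staygreen, which removes magnesium from chlorophyll a, was at 249, 196 and 215 TPM in KY and at 138, 124 and 148 TPM in K326 as a sum. Its main gene, Nitab4.5_0000847g0060, fell from 139, 96.5 and 112 TPM to 61.9, 46.2 and 67.4 TPM (log2 change -0.98, limma adjusted p = 0.0243). That call was lost as deposited (adjusted p = 0.122) and without K326 replicate 2 (0.0952), KY replicate 1 (0.0996) or KY replicate 3 (0.0644). Genes described by the domain of pheophorbide a oxygenase, the enzyme that opens the chlorophyll ring, moved both ways, with 2 of 10 higher and 1 lower. Which of them encode that enzyme was not tested. Nitab4.5_0002162g0210 fell from 106, 102 and 106 TPM to 35.1, 31.4 and 43.6 TPM (adjusted p = 4.2e-05), while Nitab4.5_0003134g0120 rose from 15.4, 14.4 and 16.6 TPM to 39.3, 32.3 and 48.4 TPM (adjusted p = 0.00046). The lower genes of the list were 1 without K326 replicate 2 or KY replicate 1, and the higher ones were 1 in each of the 6 fits without a library.

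Light-harvesting proteins, which bind most of the leaf's chlorophyll, summed to 49100, 35800 and 40900 TPM in KY and to 28500, 23400 and 40000 TPM in K326. K326 replicate 3 reached the KY range, so the sums overlapped. Of 87 genes tested, 17 fell (19.5%) and 2 rose (2.30%), with a median log2 change of -0.61. Nitab4.5_0003611g0080 fell from 21.5, 10.4 and 15.0 TPM to 3.63, 2.19 and 5.83 TPM (log2 change -1.78, limma adjusted p = 0.00954). Nitab4.5_0006300g0020 rose against the family, from 35.5, 20.8 and 29.8 TPM to 77.9, 78.4 and 171 TPM (log2 change 1.82, adjusted p = 0.00636). The member with the highest level, Nitab4.5_0003757g0140, stood at 4460, 3180 and 3650 TPM in KY and at 2090, 1820 and 3410 TPM in K326, which overlapped and did not pass (adjusted p = 0.140). The lower count was 6 without KY replicate 1, 7 without KY replicate 3 or K326 replicate 2 and 9 without K326 replicate 1. The 2 rises were 1 without KY replicate 2 or K326 replicate 2. As deposited, 3 genes fell and 5 rose, with a median of -0.14. In the 6 wild type libraries alone 28 of 86 fell, with no filter on low values 11 of 90 fell, and under quantile normalization 5 rose.

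Photosystem and electron transport genes did likewise, with 22 of 124 lower (17.7%), 2 higher (1.61%) and a median of -0.63. Of 16 subunits and carriers summed over their genes, 9 had K326 wholly below KY and 0 above, beside 23.5% of single genes wholly below. That share covers genes of all levels, whereas genes at 500 TPM or more had a median log2 change of -0.55. As deposited, ratios of the 9 ran from 0.752 (PsbQ) to 0.984 (the cytochrome b6/f Rieske protein). Those of the sums that overlapped ran from 0.904 (PsaF) to 1.19 (PsbR). The oxygen-evolving proteins at photosystem II were among the 9. PsbQ was at 5370 ± 819 TPM in KY and 2860 ± 724 in K326, and PsbO at 4240 ± 718 and 2460 ± 695. Of the 25 PsbP-type genes, 11 fell, and their sum was 2920 ± 370 and 1780 ± 482 TPM. Photosystem I subunits PsaE (ratio 0.603), PsaH (0.652) and PsaN (0.595) lay below KY, and PsaD, PsaF, PsaL and PsaO overlapped. Plastocyanin, the copper carrier between both complexes, was at 3930, 2720 and 3290 TPM in KY and at 2170, 1170 and 2580 TPM in K326. The lower count was 8 without KY replicate 1 or K326 replicate 2 and 12 without KY replicate 3, and the 2 rises were 1 without either of KY replicates 1 and 2 or K326 replicates 1 and 3. As deposited, 1 gene fell and 7 rose, with a median of -0.13, and in the 6 wild type libraries alone 34 fell.

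Gene models with domains of plastid-encoded proteins, such as PsaA/PsaB and the Rubisco large subunit, moved along with these lists, and their part in the results was not tested. They summed to 6570, 4970 and 6300 TPM in KY, 4100, 1570 and 2520 TPM in K326, and 7380, 13300 and 4310 TPM in the YOE libraries. Of 52 tested, 17 fell (32.7%) and 0 rose, with a median of -1.20, and as deposited 20 fell and 0 rose. In the 6 wild type libraries alone, 37 of 46 fell (80.4%). The lower count was 4 without KY replicate 1 or K326 replicate 2, 7 without KY replicate 3 and 11 without K326 replicate 3. A PsaA/PsaB-type model, Nitab4.5_0000718g0190, fell from 11.5, 8.86 and 19.7 TPM to 1.88, 1.76 and 2.85 TPM (log2 change -2.13, limma adjusted p = 0.00603).

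**Figure D3:**
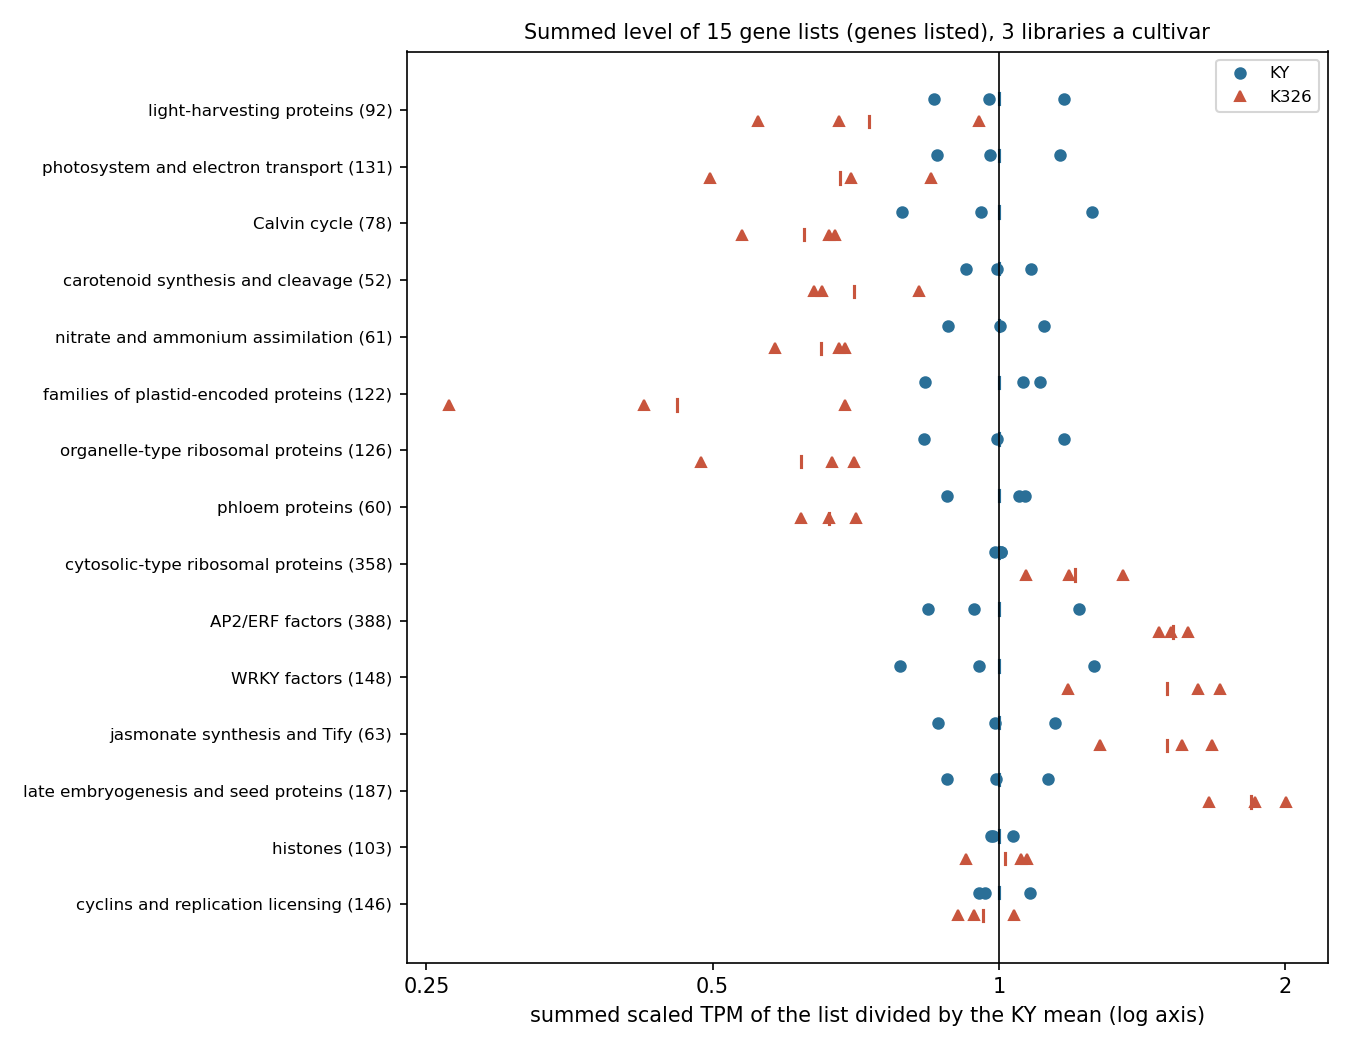
Summed scaled TPM of 15 gene lists divided by the KY mean (horizontal log axis); circles are KY libraries, triangles are K326 libraries, short lines are means, and the number of genes listed is in brackets. K326 lies left of KY in the photosystem, Calvin cycle, carotenoid, nitrogen, plastid-encoded, organelle-type ribosomal and phloem lists. It lies right of KY in the cytosolic-type ribosomal, AP2/ERF, jasmonate and late embryogenesis lists. The light-harvesting, WRKY, histone and cyclin lists overlap.

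The Calvin cycle had a larger share of lower genes, 23 of 60 (38.3%), with 4 higher and a median of -0.57. Rubisco small subunit genes, whose protein pairs with the large subunit to fix carbon dioxide, summed to 24200, 14200 and 17300 TPM in KY and to 12700, 10400 and 12000 TPM in K326. Nitab4.5_0000912g0250, a small subunit gene, fell from 1410, 678 and 912 TPM to 345, 189 and 179 TPM (log2 change -2.07, limma adjusted p = 0.00766). Phosphoribulokinase, which remakes the carbon dioxide acceptor, was at 1440 ± 253 TPM in KY and 832 ± 154 in K326, with 3 of 4 tested genes lower. The fructose- and sedoheptulose-bisphosphatase genes had 11 of 15 lower, at 1820 ± 261 and 1220 ± 209 TPM as a sum. A ribose 5-phosphate isomerase gene, Nitab4.5_0007384g0010, rose from 14.5, 13.2 and 15.5 TPM to 27.9, 26.3 and 32.2 TPM (adjusted p = 0.0002). The lower count was 8 without KY replicate 1 or K326 replicate 2, 9 without KY replicate 3 and 15 without K326 replicate 1. The 4 rises were 1 without KY replicate 3 or K326 replicate 1, and 2 without KY replicates 1 or 2 or K326 replicate 3. As deposited, 5 genes fell and 12 rose, with a median of -0.07.

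Starch genes split by enzyme. Of 52 tested, 13 rose (25.0%) and 14 fell (26.9%), with a median of -0.08, and as deposited 18 rose and 8 fell. The beta-amylase family, which releases maltose from starch, summed to 553, 588 and 548 TPM in KY and to 218, 160 and 218 TPM in K326, and 9 of its 14 tested genes fell with 0 rising. Its strongest fall was Nitab4.5_0000185g0250, from 60.1, 47.2 and 52.8 TPM to 4.31, 2.13 and 2.88 TPM (log2 change -3.75, limma adjusted p = 8.2e-07). Starch phosphorylase, which releases glucose 1-phosphate, lay the other way at 62.5, 50.8 and 65.2 TPM in KY and 137, 130 and 116 TPM in K326, with 6 genes higher and 2 lower. Branching enzyme was at 35.5 ± 2.75 and 48.9 ± 3.25 TPM. ADP-glucose pyrophosphorylase and starch synthase overlapped between the cultivars.

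Carotenoid genes were lower in 13 of 28 tested (46.4%), with 1 higher and a median of -0.47. The squalene/phytoene synthase family, which holds the entry enzyme of the pathway, summed to 632, 483 and 559 TPM in KY and to 323, 216 and 289 TPM in K326. Its most expressed gene, Nitab4.5_0000091g0360, fell from 286, 205 and 255 TPM to 149, 84.0 and 101 TPM (log2 change -1.18, limma adjusted p = 0.00799). Phytoene desaturase (57.5 ± 1.62 and 34.8 ± 7.56 TPM), zeta-carotene desaturase (37.5 ± 3.02 and 21.7 ± 2.84 TPM) and both violaxanthin de-epoxidase genes (48.2 ± 7.71 and 24.3 ± 4.16 TPM as a sum) fell too. The higher member was a carotenoid oxygenase, a family that cleaves carotenoids, Nitab4.5_0001333g0020, at 35.7, 41.0 and 39.1 TPM in KY and 46.4, 80.4 and 99.9 TPM in K326 (adjusted p = 0.0485, over 0.05 without any 1 of the KY libraries or K326 replicates 2 or 3). The list held 2 higher genes without K326 replicate 1 and 0 without each other library. The lower count was 6 without KY replicate 1 or K326 replicate 2 and 8 without KY replicate 3. As deposited, 2 genes fell and 4 rose, with a median of 0.04.

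Nitrogen assimilation was lower at the enzymes and mixed by gene. Both nitrate reductase genes fell, and their sum was 273, 226 and 252 TPM in KY and 132, 114 and 122 TPM in K326. Glutamate synthase, which returns ammonium nitrogen to amino acids, was at 212 ± 10.8 and 115 ± 4.07 TPM. Glutamine synthetase summed to 886 ± 138 and 568 ± 79.0 TPM, with 3 of 14 genes lower and 5 higher. Its most expressed gene, Nitab4.5_0000059g0010, fell from 508, 344 and 427 TPM to 221, 155 and 249 TPM (log2 change -1.04, limma adjusted p = 0.0255), a call lost as deposited (0.0714) and without KY replicate 1 (0.102), KY replicate 3 (0.0727) or K326 replicate 2 (0.101). Ammonium transporters overlapped. Of 36 genes in the list, 10 fell (27.8%) and 8 rose (22.2%), with a median of -0.08, and as deposited 1 fell and 10 rose. The 8 rises were 5 without KY replicate 1 or K326 replicate 2.

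Alkaloid and polyamine genes also moved by step. The putrescine-forming decarboxylases summed to 109, 112 and 114 TPM in KY and to 83.2, 70.2 and 72.1 TPM in K326, and S-adenosylmethionine decarboxylase to 733 ± 31.9 and 487 ± 49.0 TPM. In the nicotinic acid branch that feeds nicotine, L-aspartate oxidase was lower (35.7 ± 0.634 and 19.5 ± 2.21 TPM, its 1 tested gene called). Quinolinate synthase lay lower (25.2 ± 1.46 and 17.8 ± 2.65 TPM). The quinolinate phosphoribosyltransferase sum lay higher (117 ± 3.60 and 137 ± 6.65 TPM), although 1 of its 6 tested genes rose and 2 fell. The berberine bridge enzyme family, which holds late enzymes of nicotine synthesis, summed to 8.85, 8.46 and 8.98 TPM in KY and to 16.9, 21.7 and 16.9 TPM in K326. Of its 43 genes 4 were tested and 1 rose. Most of the higher sum came from that gene, Nitab4.5_0000076g0060, at means of 1.06 TPM in KY and 9.56 TPM in K326. Nicotine is made mainly in roots, and these are leaf levels. Over the list, 11 of 40 genes fell (27.5%) and 6 rose (15.0%), with a median of -0.03. The 11 falls were 7 without KY replicate 1, and the 6 rises were 3 without KY replicates 1 or 3 or K326 replicates 1 or 2. As deposited, 0 fell and 12 rose. Of the 5 steps below KY on the scaled values, spermidine synthase was above it as deposited, at a ratio of 1.15.

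Jasmonate genes lay on the higher side. Of 34 tested, 7 rose (20.6%) and 0 fell, with a median of 0.36. Tify repressors, which hold jasmonate responses back, summed to 153, 239 and 195 TPM in KY and to 266, 367 and 324 TPM in K326. Allene oxide cyclase, which sets the stereochemistry of the hormone precursor, was at 40.3 ± 6.59 and 73.8 ± 5.59 TPM, and neither of its genes passed. Lipoxygenase genes had 4 rises among 16 and sums of 157 ± 6.50 and 197 ± 26.6 TPM. The Tify gene Nitab4.5_0004234g0080 rose from 4.06, 13.4 and 9.77 TPM to 26.9, 33.0 and 23.5 TPM (log2 change 1.63, limma adjusted p = 0.0143; 0.0563 without either KY replicate 1 or K326 replicate 2). The count of rises was 2 without KY replicate 1 or K326 replicate 2, 3 without KY replicate 3, 4 without K326 replicate 3 and 11 without K326 replicate 1. As deposited, 16 rose and 0 fell, and in the 6 wild type libraries alone 11 of 31 rose.

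AP2/ERF factors, plant regulators of ethylene, cold and drought responses, rose in 42 of 164 genes (25.6%) and fell in 7 (4.27%), with a median of 0.41. Their sums were 1540, 2220 and 1720 TPM in KY and 2770, 2890 and 2690 TPM in K326, without overlap. The most expressed member, Nitab4.5_0002211g0060, rose from 58.1, 105 and 69.7 TPM to 205, 193 and 174 TPM (log2 change 1.33, limma adjusted p = 0.00128). Nitab4.5_0000435g0080 rose from 0.626, 3.07 and 2.03 TPM to 7.59, 16.0 and 11.5 TPM (adjusted p = 0.00927). Against the family, Nitab4.5_0001603g0010 fell from 32.0, 29.5 and 27.8 TPM to 7.12, 9.33 and 8.77 TPM (adjusted p = 1.3e-05). The count of rises was 14 without KY replicate 1, 22 without KY replicate 3 and 19 without K326 replicate 2, and as deposited 75 rose and 3 fell. In the 6 wild type libraries alone, 12 of 139 fell.

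WRKY factors, many of which act in defence, rose in 17 of 91 genes (18.7%) and fell in 4 (4.40%), with a median of 0.43. Their sums overlapped, at 826, 1320 and 1000 TPM in KY and 1790, 1700 and 1240 TPM in K326. Nitab4.5_0000886g0010 rose from 5.51, 12.0 and 7.05 TPM to 46.2, 44.8 and 25.5 TPM (log2 change 2.13, limma adjusted p = 0.00051), and Nitab4.5_0000929g0030 fell from 20.5, 21.2 and 19.7 TPM to 8.75, 8.28 and 10.1 TPM (adjusted p = 0.00078). The rises were 3 without KY replicate 1 or K326 replicate 2, 6 without KY replicate 3 and 8 without K326 replicate 1, and the 4 falls were 2 without KY replicate 3. As deposited, 36 rose and 2 fell, and with no filter 11 of 144 rose. KY replicate 2 had the highest KY sum in the AP2/ERF, WRKY and Tify families.

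CCT-domain genes, which include clock and light-response regulators, split with 8 of 30 higher (26.7%), 7 lower (23.3%) and a median of -0.15. The B-box gene Nitab4.5_0013739g0010 fell from 39.2, 40.2 and 38.0 TPM to 9.53, 7.25 and 11.4 TPM (log2 change -1.97, limma adjusted p = 0.00037). A response regulator with a CCT domain, the arrangement of clock pseudo-response regulators, Nitab4.5_0000575g0010, rose from 7.63, 7.52 and 7.29 TPM to 16.3, 18.5 and 19.4 TPM (adjusted p = 0.0001). The rises were 2 without KY replicate 1 or K326 replicate 2, 3 without KY replicate 3 or K326 replicate 3 and 5 without KY replicate 2. The falls were 3 without KY replicates 1 or 3 or K326 replicates 1 or 2 and 4 without KY replicate 2. The harvest hour of each cultivar was not given. As deposited 9 rose and 3 fell, with a median of 0.33.

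Cytosolic-type ribosomal proteins rose in 79 of 285 genes (27.7%) and fell in 10 (3.51%), with a median of 0.31. Their sums were 8360, 8480 and 8480 TPM in KY and 11400, 10000 and 9010 TPM in K326, all higher, and 235 of the 285 genes had a positive change. Nitab4.5_0000362g0170, of the L7Ae/L30e type, rose from 2.74, 3.86 and 4.21 TPM to 11.0, 10.9 and 12.7 TPM (log2 change 1.46, limma adjusted p = 0.00065). The most expressed, Nitab4.5_0000647g0070 of type L29e, stood at 177, 165 and 191 TPM in KY and 264, 221 and 218 TPM in K326 and did not pass (adjusted p = 0.0728; 0.0110 as deposited). Rises numbered 27, 46 and 33 without KY replicates 1, 2 and 3, and 30 and 33 without K326 replicates 1 and 2. As deposited, 190 rose and 4 fell. Ribosomal proteins of the organelle type did not share this pattern in their counts, with 14 of 94 higher (14.9%), 26 lower (27.7%) and a median of -0.03. Their sums were 3980, 2830 and 3380 TPM in KY and 2390, 1650 and 2270 TPM in K326. Their falls were 3, 8 and 4 without KY replicate 1, KY replicate 3 and K326 replicate 2, their rises 7 or 8 without each of those or K326 replicate 1, and as deposited 26 rose and 6 fell. With no filter, 17 of 114 fell.

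Late embryogenesis and seed-type proteins, known to protect cells during drying, rose in 24 of 79 genes (30.4%) and fell in 3 (3.80%). Their median was 0.22, and their sums were 1430, 1830 and 1610 TPM in KY and 2700, 3250 and 3020 TPM in K326. A dehydrin, Nitab4.5_0000588g0250, made up much of this, at 246, 359 and 283 TPM in KY and 771, 1150 and 974 TPM in K326 (log2 change 1.70 ± 0.224 SE, limma adjusted p = 0.00041). The LEA-14 gene Nitab4.5_0012011g0020 rose from 1.44, 3.30 and 2.19 TPM to 12.0, 11.9 and 10.9 TPM (adjusted p = 7.3e-05). The LEA-5 gene Nitab4.5_0007333g0010 fell from 71.6, 79.5 and 77.3 TPM to 36.1, 42.3 and 50.5 TPM (adjusted p = 0.00268; 0.359 as deposited). The rises were 13 without KY replicate 1 and 15 without K326 replicate 2, and as deposited 33 rose and 1 fell. In the 6 wild type libraries alone, and with no filter, 5 fell.

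Markers of other tissues gave the following. Phloem proteins summed to 525 to 634 TPM in KY and to 368 to 421 TPM in K326, with 6 of 38 genes higher, 7 lower and 4 of the 60 listed at 0 in all 6 libraries. The 6 rises were 3 without KY replicates 1 or 3 or K326 replicate 2, and the 7 falls were 2 to 4 without each library other than K326 replicate 3. The lower sum came mainly from a Phloem protein 2-like gene, Nitab4.5_0006444g0020, at 370, 249 and 339 TPM in KY and 169, 122 and 86.2 TPM in K326 (log2 change -1.37, limma adjusted p = 0.0214; 0.153 as deposited, and over 0.05 without KY replicates 1 or 3 or K326 replicates 2 or 3). Flower and pollen families summed to 801 to 844 TPM and 856 to 1070 TPM. Histones (1860 to 1960 and 1750 to 2030 TPM) and cyclins with replication licensing genes (403 to 456 and 383 to 438 TPM) overlapped between the cultivars. Light-harvesting proteins, which mark green leaf, were abundant in every library of both cultivars. Whether a different make-up of the leaves had a part in the results was not tested.

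**Figure D4:**
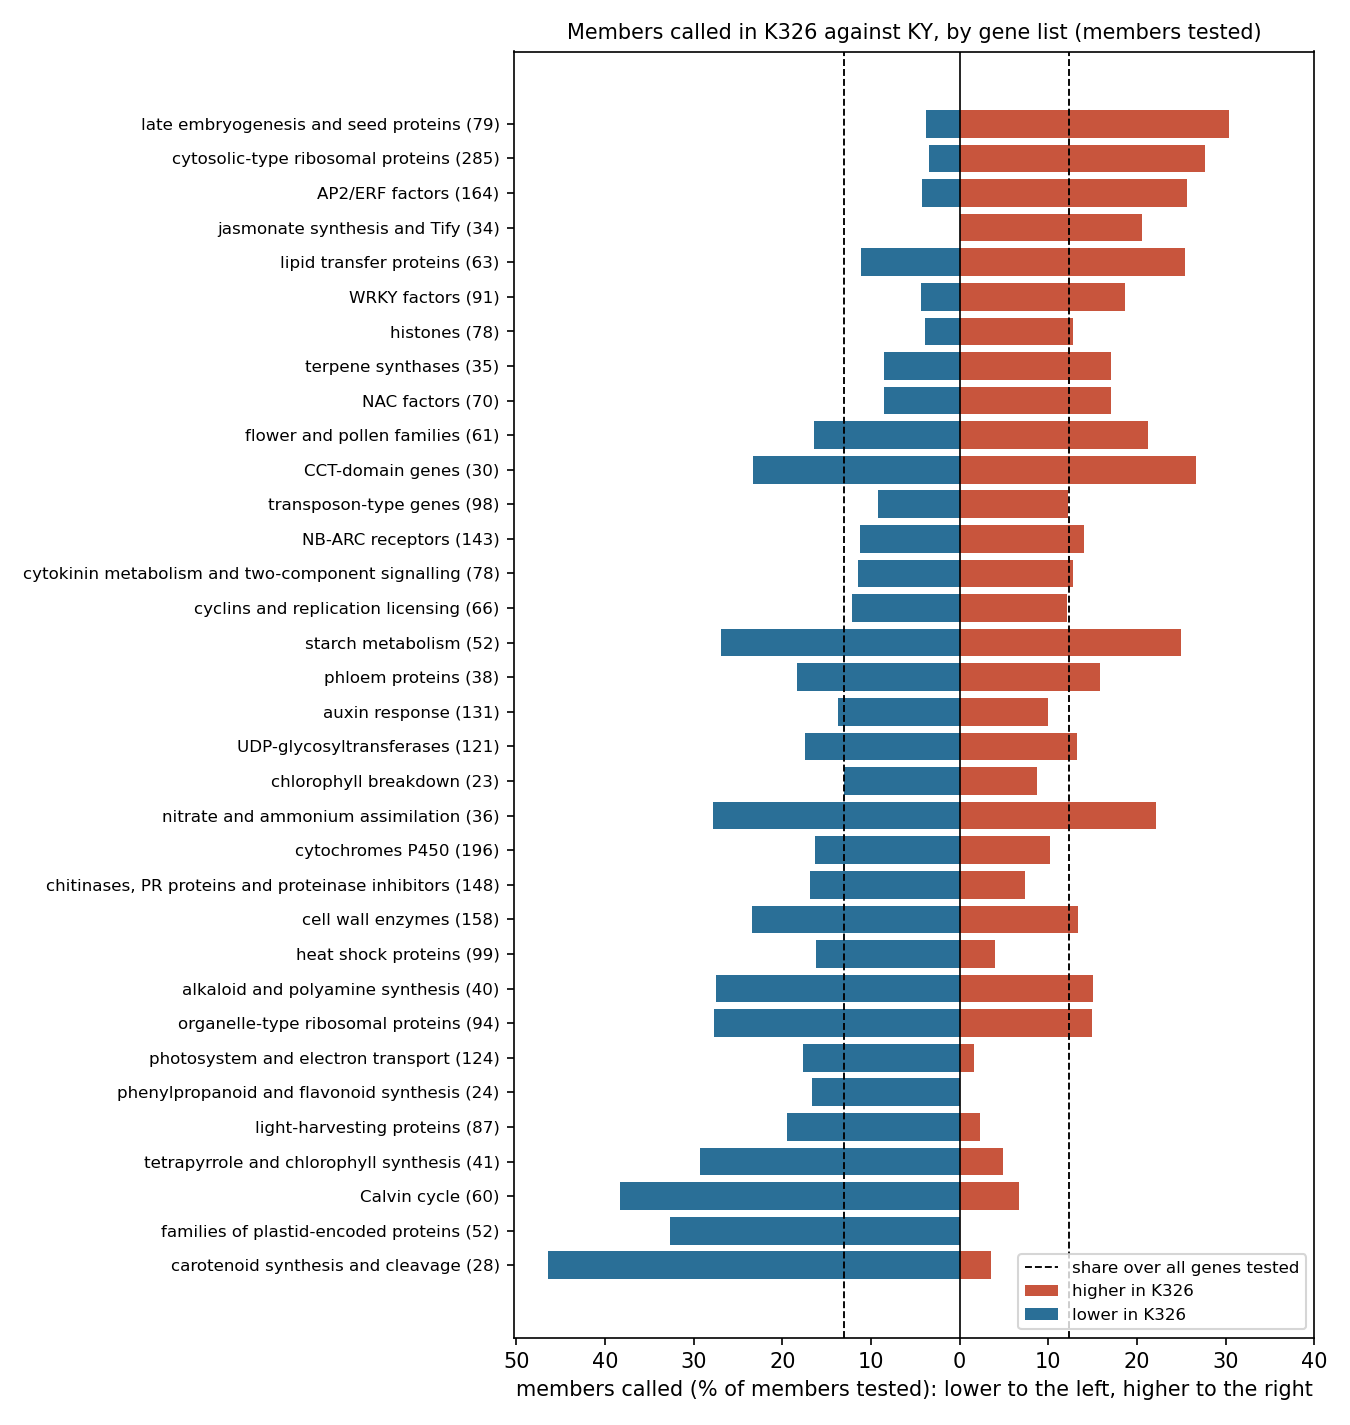
Percent of tested members called higher (right) or lower (left) in K326 in each list with at least 20 tested genes, whose number is in brackets; dashed lines mark the 12.3% and 13.0% over all genes tested. On these scaled values the late embryogenesis and cytosolic-type ribosomal lists reach 30.4% and 27.7% on the right, and the carotenoid list reaches 46.4% on the left.

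Among the largest rises, many genes were near 0 in KY. A lipid transfer protein, Nitab4.5_0000212g0010, was at 0, 0.106 and 0.068 TPM in KY and at 138, 122 and 114 TPM in K326 (limma adjusted p = 1e-07). A gene with EF-hand domains, which bind calcium, Nitab4.5_0005031g0050, was at 0, 0.0705 and 0 TPM and at 102, 66.0 and 86.9 TPM. A gene of the LepA (elongation factor 4) type, a family of translation GTPases, Nitab4.5_0000147g0070, was at 0.0953, 0.376 and 0.068 TPM and at 50.3, 51.8 and 54.7 TPM. Some genes of this group lay on the same scaffold. Papain-type protease genes Nitab4.5_0000681g0080 (60.3, 53.6 and 28.6 TPM in K326) and Nitab4.5_0000681g0130 (28.8, 46.8 and 20.6 TPM) share a scaffold. So do a folate synthesis gene of the dihydroneopterin aldolase type, Nitab4.5_0008674g0010 (47.8, 35.1 and 38.4 TPM), and a gene with an ataxin-2 C-terminal domain, Nitab4.5_0008674g0020 (28.3, 44.1 and 37.4 TPM), and no KY library held any of these 4 genes above 0.682 TPM. A triose phosphate/phosphoenolpyruvate translocator, Nitab4.5_0000006g0100, which carries sugar phosphates across the plastid envelope, differed in being measurable in both, at 1.25, 0.846 and 1.29 TPM and at 41.3, 66.6 and 51.0 TPM (log2 change 4.64 ± 0.420, adjusted p = 2.8e-05). Below these, a GH3 gene, of the family that attaches amino acids to auxin or jasmonate, Nitab4.5_0009125g0010, rose from 0.667, 1.06 and 0.272 TPM to 23.5, 25.0 and 19.6 TPM (log2 change 3.85, adjusted p = 1.1e-05).

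The largest falls were mostly of genes that K326 still held at low levels. The DnaJ-domain genes Nitab4.5_0011198g0010 and Nitab4.5_0005707g0010, whose family assists Hsp70 chaperones, stood at 57.0, 61.3 and 55.7 TPM and at 51.5, 51.1 and 40.6 TPM in KY. In K326 they stood at 2.52, 0.865 and 1.82 TPM and at 1.31, 1.52 and 2.04 TPM (limma adjusted p = 1.8e-05 and 1.3e-05). The PC4-type coactivator gene Nitab4.5_0001310g0060, of RNA polymerase II transcription, had the highest KY level of the group, at 166, 145 and 121 TPM, against 15.6, 9.68 and 6.40 TPM (log2 change -3.71 ± 0.306). Neighbouring family 18 chitinases, enzymes that cut chitin, fell together. Nitab4.5_0000416g0240 went from 43.2, 78.7 and 77.1 TPM to 5.09, 1.96 and 4.84 TPM, and Nitab4.5_0000416g0250 from 8.57, 17.2 and 16.0 TPM to 0.498, 0.0689 and 0.149 TPM. Calreticulin-type gene Nitab4.5_0002679g0010, of a family of calcium-binding chaperones, fell from 12.8, 16.5 and 16.2 TPM to 0.801, 0.627 and 0.697 TPM, and polygalacturonase-type gene Nitab4.5_0006568g0010, of a pectin-cutting family, from 27.7, 14.5 and 18 TPM to 1.26, 0.436 and 2.39 TPM. One fall rested on uneven K326 libraries. An aminotransferase of the diaminopimelate type in lysine synthesis, Nitab4.5_0000302g0060, was at 25.1, 19.9 and 22.4 TPM in KY and at 9.53, 0 and 0.102 TPM in K326 (adjusted p = 0.0173, and 0.0519 to 0.0730 without KY replicates 1 or 3 or K326 replicates 2 or 3). The other genes of this group were the beta-amylase gene Nitab4.5_0000185g0250 described above, a transposase (Nitab4.5_0000386g0150), a MADS-box gene (Nitab4.5_0014584g0010) and a ribonuclease H-type gene (Nitab4.5_0000256g0270).

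Some genes were on in 1 cultivar and off in the other, meaning at least 2 TPM in its 3 libraries and at most 0.2 in the 3 of the other. Of 69500 genes listed, 86 (0.124%) were on in K326 and off in KY, and 16 (0.023%) were on in KY and off in K326. These limits chose the genes, so the counts are a description. Of the 86, 40 were listed at 0 in all KY libraries, 24 had no description, and 85, 85 and 86 stood at 1 TPM or more in the Q18 libraries and 85, 83 and 86 in the YOE libraries. Of the 16, the Q18 libraries held 0, 0 and 0 at that level and the YOE libraries 0, 1 and 1. Genes on in KY alone included the MADS-box gene Nitab4.5_0014584g0010 (11.8, 11.6 and 12.1 TPM), an NB-ARC immune receptor gene, Nitab4.5_0021935g0010 (8.45, 8.15 and 7.76 TPM, 0 in all of K326), and a Phloem protein 2-like F-box gene, Nitab4.5_0000258g0320 (7.31, 8.58 and 6.34 TPM).

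Some of the 86 genes shared scaffolds of the assembly, and how many genes of other sets would do so was not tested. They fell on 55 scaffold numbers, taken from the gene identifiers, and 43 of them shared 12 scaffolds with at least 1 other. The 16 genes of the opposite kind lay on 16 scaffolds. The 4 scaffolds with the most of the 86 held 24 of them. These scaffolds were picked for those genes, and a gene silent in KY could be tested only through the other groups, so what follows is a description. Of the 71 other genes listed on them, 24 stood at 1 TPM or more in all K326 libraries, 7 in all KY libraries, 6 in both and 46 in neither. On scaffold 0000733, which carries the ChlD copy that was near 0 in KY, 4 of the 19 others reached 1 TPM in all K326 libraries and 0 in all KY libraries. Its other members included an NmrA-like gene, Nitab4.5_0000733g0110 (58.4, 44.2 and 49.5 TPM in K326), an M16 peptidase gene, Nitab4.5_0000733g0050 (14.5, 16.1 and 14.9 TPM), and a remorin gene, Nitab4.5_0000733g0190 (7.54, 11.7 and 11.3 TPM), and their KY values were at most 0.188 TPM. On scaffold 0000826, 8 of the 24 others reached 1 TPM in all K326 libraries and 0 in all KY libraries. The scaffold holds a ribosome biogenesis gene of the BRX1 type, Nitab4.5_0000826g0070, at 0.0817, 0.106 and 0 TPM in KY and at 15.6, 18.7 and 13.8 TPM in K326. On scaffold 0001049, 6 of 13 others reached 1 TPM in all K326 libraries and 2 in all KY libraries.

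Scaffold 0003779 was mixed, with 6 of 15 others at 1 TPM or more in all K326 libraries, 5 in all KY libraries and 4 in both. It holds a ubiquitin-conjugating enzyme, Nitab4.5_0003779g0060, which passes ubiquitin to target proteins, and translation initiation factor 1A, Nitab4.5_0003779g0110. Both were listed at 0 in the KY libraries and stood at 90.2, 70.4 and 78.1 TPM and at 64.2, 52.6 and 52.0 TPM in K326. A gene with a heavy metal-associated domain there, Nitab4.5_0003779g0140, was lower in K326, at 43.9, 30.8 and 29.2 TPM in KY and 17.7, 9.53 and 13.9 TPM in K326 (limma adjusted p = 0.00239). The genes of these scaffolds named here in addition to those of the naming rule were chosen after their values were seen. The ChlH copy Nitab4.5_0005195g0040 was not among the 86, since KY replicate 2 held it at 0.306 TPM.

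**Figure D5:**
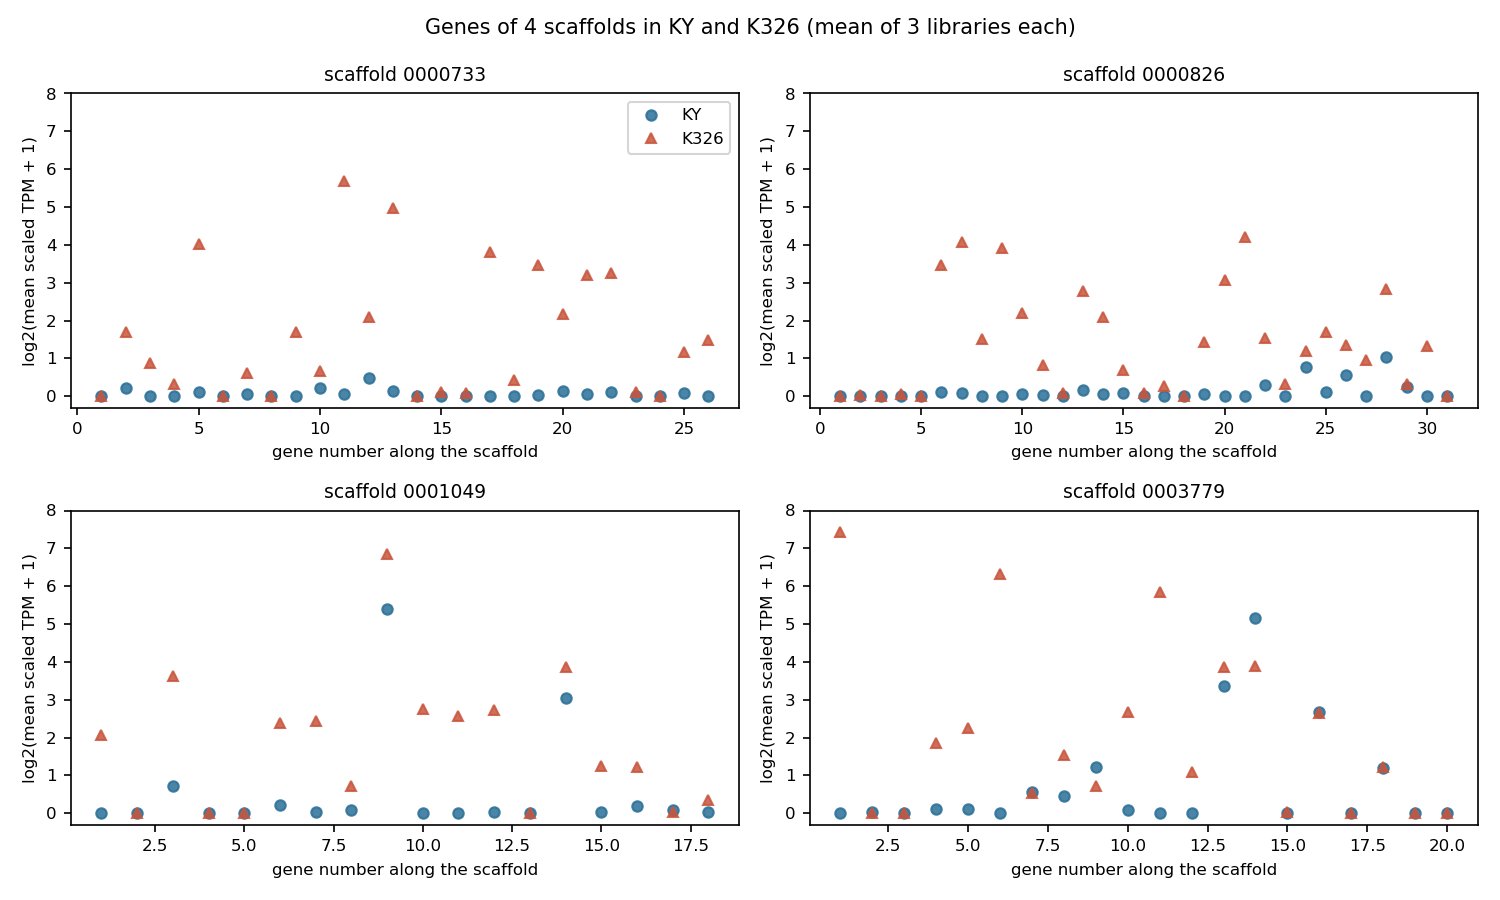
Mean level of every listed gene, as log2(mean scaled TPM + 1) on the vertical axis, against its number along 4 scaffolds on the horizontal axis; circles are KY and triangles are K326, each the mean of 3 libraries. On scaffold 0000733 the KY circles stay near 0 along the whole scaffold while K326 triangles rise above them at some genes. Scaffold 0000826 is similar, except that its gene Nitab4.5_0000826g0280 has a KY mean of 1.05 TPM. Scaffolds 0001049 and 0003779 hold genes with higher KY values.

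For some of these genes a possible counterpart could be named, as the single other tested gene with the same set of domains. Shared domains do not show that such genes are homeologous copies. Of the 86, 7 had one. It was lower in K326 in 5 pairs, higher in 0 and not called in 2. Over all genes tested, 13.0% were lower and 12.3% higher. The median log2 change of these counterparts was -0.71. For the 7 pairs, the sum of both genes in K326 ranged from 0.753 to 2.48 times that in KY, with a median of 1.09. Of the 16 genes on in KY alone, 1 had a counterpart, which was not called. Genes called higher on the 4 scaffolds were searched in the same way, whether or not they were among the 86. On scaffold 0000826, counterparts of 4 such genes lay on a single scaffold, 0001618. The S-formylglutathione hydrolase gene Nitab4.5_0000826g0060 went from a mean of 0.0779 TPM to 10.1 TPM. Its counterpart Nitab4.5_0001618g0150 went from 21.2 to 13.2 TPM (log2 change -0.65, limma adjusted p = 0.0124, sum in K326 1.09 times that in KY). A helicase-type gene, Nitab4.5_0000826g0080, was not among the 86. It likewise went from 0 to 1.87 TPM and its counterpart Nitab4.5_0001618g0170 from 6.82 to 2.71 TPM (log2 change -1.08, limma adjusted p = 6.2e-04, sum in K326 0.673 times that in KY). The remaining pairs with scaffold 0001618 had sums in K326 of 1.14 and 1.19 times those in KY. By copy, the direction in these pairs is that seen in ChlH and ChlD. The sums differed, since those of ChlH and ChlD were lower in K326 (0.384 and 0.612) and among these pairs only the helicase-type sum was. How well reads of each cultivar match the reference was not tested.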

How the data were processed

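RNA sequencing of tobacco seedling leaf gave a table of 69500 genes in 12 libraries. The deposited values were taken as TPM from the tools named and from their range; no header gives a unit, and whether they are FPKM was not tested. Per the submitters' processing notes, Salmon and StringTie were used, and for the genome build nothing is given in the sources used here. Identifiers begin with Nitab4.5, and 0 matched the RefSeq table, so names are the table's InterPro descriptions.

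Each library was divided by a factor, its median ratio to the average library, taken over the 20130 genes that reached 1 in every one of the 12 libraries. Of the scaled genes, 31064 reached 1 in 3 or more libraries and were fitted as log2(value + 1) in limma 3.58.1 (R 4.3.3) with trend and robust settings, 4 group means and Benjamini-Hochberg adjustment at 0.05. Fold changes on this scale understate low genes and depend on the pseudocount of 1. The count test considered in the design did not apply to TPM. Sums over copies were compared with exact permutation tests, or by whether the 3 against 3 values overlapped. The fit was tested on simulated data. Alternatives were the values as deposited, quantile normalization, another pseudocount, filters, the 6 libraries alone, a fold of 2, a replicate block and each library left out.

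The 36 gene lists match words in the descriptions. Members and lists were chosen with earlier results of these data known, and patterns were refined after descriptions, not values, had been read. The naming rule took all chelatase genes, the 12 largest rises and falls without overlap at a mean of 5 TPM or more in the higher cultivar and with an informative description, the largest rise, largest fall and highest level of each list, and the 5 highest genes on in 1 cultivar alone, each way. Figures were drawn with matplotlib 3.10.9, and tables were made with pandas 2.3.3 on numpy 2.4.6 and Python 3.11.15.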

Additional observations from a re-analysis of the deposited data

How the results depend on the processing

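Of the 7841 genes called, the total was 4625 (2262 higher, 2363 lower) with a mean of at least 5 TPM, which tested 14002 genes, and 2178 (1089 higher, 1089 lower) at 2-fold or more. As deposited, 7505 were higher and 936 lower. Leaving out 1 library gave 3906 to 6458 calls, 1950 to 3063 of them higher and 1956 to 3401 lower; fewer samples entered those fits. Quantile normalization (7936), a pseudocount of 0.1 (7862), no filter (7232) and the 6 wild type libraries alone (9334) stayed within 1.5 times. Genes on in K326 numbered 31 with limits of 5 and 0.1 TPM and 212 with limits of 1 and 0.5 TPM, and genes on in KY 6 and 115. With replicate number as a block the total was 7565 (3621 higher, 3944 lower). Same-numbered K326 and KY libraries had deviations correlating at 0.109, 0.241 and 0.017, not all over 0.1, so the numbers were not taken to pair the samples. K326 replicate 3 correlated best with KY replicate 1 (0.098). Each KY library correlated best with the K326 library of its own number, KY replicate 3 narrowly (0.017, against 0.015 with K326 replicate 1). Of the 123 genes named by rule, 10 changed sign as deposited. Of these 9 were called in neither setting, and 1 was called on the scaled values, the terpene synthase Nitab4.5_0008024g0010, with a log2 change of 0.02 as deposited; the cause was not tested. Quantile normalization changed the sign of 5, called in neither setting. A mean of at least 5 TPM tested fewer genes of each list. TPM keep no read depth, so counting error at low values is unknown.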

Other observations

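Gene families outside the pathways above are given beside the 12.3% higher and 13.0% lower of all genes tested. Counts that moved by more than 1.5 times without 1 library are given with it, by cultivar and replicate number. Cytokinin metabolism and two-component signalling, the hormone path behind the study, had 10 of 78 genes higher (12.8%) and 9 lower (11.5%) in K326, with 14 and 2 as deposited. Its rises were 6 without KY 3, and its falls were 5 without KY 1 or KY 3. A LOG-type gene, which frees active cytokinin from its nucleotide, Nitab4.5_0000602g0060, fell from 28.0, 25.8 and 26.5 TPM to 13.0, 11.6 and 12.3 TPM (limma adjusted p = 0.00129; 0.0940 as deposited). UDP-glycosyltransferases, the family of cis-zeatin O-glucosyltransferases, had 16 of 121 higher (13.2%) and 21 lower (17.4%), with 29 and 9 as deposited and 9 rises without K326 2 and 12 falls without KY 1. Among them, Nitab4.5_0000856g0190 fell from 16.2, 11.7 and 11.5 TPM to 2.57, 1.97 and 2.57 TPM (adjusted p = 6.5e-06). No description named NtCISZOG, so its level is not given.

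Auxin-response genes had 13 of 131 higher (9.92%) and 18 lower (13.7%), with 30 and 2 as deposited. Their rises were 3 without K326 2, 5 without KY 1 and 6 without KY 3, and their falls were 6 without KY 1, 8 without KY 3 and 9 to 11 without each K326 library. NAC factors had 12 of 70 higher (17.1%) and 6 lower (8.57%), with 19 and 3 as deposited and 7 rises without K326 2 and 3 falls without KY 1 or KY 3. NB-ARC immune receptors had 20 of 143 higher (14%) and 16 lower (11.2%), with 36 and 7 as deposited and 33 of 441 lower with no filter. Their rises were 13 without K326 2, KY 1 or KY 3, and their falls were 6, 9 and 10 without KY 3, KY 1 and KY 2. An NB-ARC gene, Nitab4.5_0002977g0140, rose from 0.449, 0.458 and 0.354 TPM to 6.53, 9.74 and 8.07 TPM (limma adjusted p = 1.7e-05). Chitinases, PR proteins and proteinase inhibitors had 11 of 148 higher (7.43%) and 25 lower (16.9%), with 23 and 9 as deposited and 12, 14 and 15 falls without KY 1, KY 3 and K326 2.

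Cytochromes P450 had 20 of 196 higher (10.2%) and 32 lower (16.3%), with 43 and 12 as deposited and 33 of 175 higher in the 6 wild type libraries alone. Their rises were 11 or 12 without KY 1, KY 3 or K326 2, and their falls were 17 to 21 without K326 2 or any KY library. Nitab4.5_0000037g0210 rose from 0.612, 0.646 and 3.17 TPM to 19.9, 24.1 and 30.0 TPM (log2 change 3.51, limma adjusted p = 0.00018). Cell wall enzymes had 21 of 158 higher (13.3%) and 37 lower (23.4%), with 38 and 17 as deposited. Their rises were 10 or 11 without KY 1, KY 3 or K326 2, and their falls were 14 to 24 without K326 2 or any KY library. A xyloglucan endotransglucosylase gene, which remodels wall xyloglucan, Nitab4.5_0000404g0110, rose from 1.91, 5.03 and 0.844 TPM to 18.1, 30.3 and 27.9 TPM (adjusted p = 0.00218). Lipid transfer proteins had 16 of 63 higher (25.4%) and 7 lower (11.1%), with 21 and 5 as deposited and 10 rises and 4 falls without K326 2 or KY 1.

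Heat shock proteins of the Hsp20, Hsp70 and Hsp90 type had 4 of 99 higher (4.04%) and 16 lower (16.2%), with 14 and 3 as deposited and 7 of 95 higher in the 6 wild type libraries alone. Their falls were 5 without KY 3 and 7 without KY 1 or K326 2, and their rises were 7 without K326 3. Histones had 10 of 78 higher (12.8%) and 3 lower (3.85%), with 28 and 3 as deposited and 2 to 5 rises without K326 1 or any KY library, 1 fall without KY 1 or KY 3 and 5 falls without K326 3. Transposon-type genes had 12 of 98 higher (12.2%) and 9 lower (9.18%), with 18 and 4 as deposited and 7 rises without K326 2 or KY 1, 3 falls without KY 1 or KY 2 and 4 without KY 3. A transposase gene, Nitab4.5_0000386g0150, fell from 19.6, 15.5 and 16.0 TPM to 0.487, 0.252 and 0.269 TPM (limma adjusted p = 5.4e-09).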
